A study of Mus musculus with 12 samples.

Results

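The genes described here are the Wnt ligands, their receptors and modulators and the Tcf/Lef factors, 53 of the 25700 genes listed in the count table. They were chosen by symbol: protein-coding genes named Wnt, Fzd, Rspo1 to Rspo4, Lgr4 to Lgr6, Sfrp or Dkk1 to Dkk4, together with Lrp5, Lrp6, Ror1, Ror2, Tcf7, Tcf7l1, Tcf7l2, Lef1 and Axin2. The set held 19 ligands, 10 Frizzled receptors, 4 co-receptors, 4 R-spondins, 3 Lgr receptors, 4 secreted Frizzled-related proteins, 4 Dickkopf proteins, 4 Tcf/Lef factors and Axin2. All 53 symbols of the annotation had a row in the table.

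RNA was measured in Schwann cells sorted from sciatic nerves at postnatal day 5, in 12 libraries from 4 mice. Every mouse carried a Cre transgene active in the Schwann cell lineage, ReYFPTg/+ and βAct-DsRedTg/+ on a C57bl/6J background, so that all groups share these alleles, and no treatment is named. Mice of both sexes were used, and single mice carry no label of sex. Recombination by this Cre marks a cell for good, whatever the cell later expresses. From each mouse the allSC gate took eYFP-positive cells as a whole, the mSC gate a fraction enriched in myelinating Schwann cells and the nmSC gate a fraction enriched in not-myelinating ones, and these fractions were set apart by granularity (side scatter). The mSC and nmSC gates are therefore fractions of cells and not pure cell types.

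Wnt proteins are secreted, lipid-modified ligands that bind Frizzled receptors together with Lrp5 or Lrp6. In the canonical branch this binding halts the destruction of β-catenin, which then enters the nucleus and acts with the Tcf/Lef factors on target genes such as Axin2. R-spondins acting through Lgr receptors raise the amount of Frizzled at the cell surface, whereas Sfrp and most Dkk proteins act against the ligands or co-receptors. Wnt signals act in the neural crest, from which Schwann cells arise, and β-catenin signalling has been linked to both the proliferation of Schwann cells and the expression of myelin genes.

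Total counts per library ranged from 10092477 to 14482001 in allSC, from 10777161 to 16918122 in mSC and from 8180927 to 13077387 in nmSC, and 3 counts corresponded to 0.177 to 0.367 CPM, the usual unit of counts scaled to the library total. CPM are given here after trimmed-mean (TMM) scaling, whose factors were 0.744 to 0.871 in mSC and 1.16 to 1.27 in nmSC. The floor of 3 counts was computed before that scaling. The libraries matched their labels: the myelination markers Pmp22, Prx, Mag and Ncmap were higher in mSC than in nmSC, and the 5 markers of immature or proliferating Schwann cells were all higher in nmSC. Markers of other cell types moved in both directions. Summed endothelial markers reached 21.7 to 33.1 CPM in mSC and 11.1 to 18.7 in nmSC, a sum carried by Kdr (means 20.3 and 5.89 CPM), while of the 5 other endothelial markers tested Pecam1 (1.25 and 2.45) and Tek (0.919 and 1.97) were called the other way. Summed immune markers reached 16.5 to 25.2 CPM in mSC, where Aif1 was at 0, and 22.5 to 33.6 in nmSC. The fibroblast sum of 892 to 2250 CPM in mSC and 9393 to 14250 in nmSC was carried by Col1a1 and Col3a1, and the other 6 fibroblast markers, a split made after seeing the values, summed to 15.3 to 47.4 CPM in mSC and 17.1 to 22.0 in nmSC. Mural markers summed to 99.0 to 201 CPM in mSC and 56.3 to 94.5 in nmSC, mostly from Pdgfrb (means 129 and 60.7 CPM). Of the 7 mural markers 2 were called higher in mSC and 1 higher in nmSC. Perineurial markers summed to 137 to 217 and 204 to 338 CPM, with Lypd2 at 0 in mSC. That sum came mostly from Itgb4 (means 127 and 206 CPM) and Slc2a1 (56.8 and 36.9), which differed in opposite directions. Neuronal markers summed to 13.4 to 21.2 CPM in mSC and 10.3 to 15.6 in nmSC, with Tubb3 as the largest part (means 9.07 and 6.87 CPM). None of the 5 neuronal markers was called higher in mSC, and 2 were called higher in nmSC. Muscle markers summed to 0.873 to 2.58 CPM in mSC and 2.83 to 4.70 in nmSC. The part of these cell types in the differences below was not tested.

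Of the 53 genes, 22 differed between mSC and nmSC, 16 of them higher in nmSC and 6 higher in mSC. The ligand Wnt6, the R-spondin receptor Lgr5 and the receptors Fzd1 and Fzd7 were among those higher in nmSC. The secreted factors Dkk3 and Sfrp5, the receptor Fzd3 and the R-spondin receptor Lgr4 were higher in mSC. Axin2 and Tcf7 were higher in nmSC, whereas Tcf7l2, Tcf7l1 and Lef1 did not pass the test. In bulk samples such as these, fewer cells of a type and less RNA per cell cannot be told apart.

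The test was edgeR's quasi-likelihood test over the 18597 genes that passed a filter on low counts, with Benjamini-Hochberg adjustment over all of them and a threshold of 0.05. Of the 53 genes, 35 passed that filter, and since a gene could pass it through 1 gate alone, counts over the 35 are a description. Among all tested genes 40.5% were called in either direction, 20.4% higher in mSC and 20.1% higher in nmSC. The 22 called here were 62.9% of the 35. In 6 of the 35 every mSC library lay above every nmSC library, and in 17 every mSC library lay below, against 16.8% and 17.4% of all tested genes. The median log2 fold change of mSC over nmSC was -0.96 over the 35 and -0.16 over all tested genes. Scaling by library size alone moved the median of all genes to -0.73, and leaving the 50 top genes out of the library size moved it to -0.52. No called gene of the set changed direction with either of these scalings, whereas 11.8% and 1.35% of all called genes did. Both scalings lower mSC as a whole, so in effect only genes called higher in mSC could turn. These were 6 of the 22 here and 3794 of the 7540 called among all tested genes, so the comparison is uneven. Without the filter all 53 genes entered the fit, and 23 were called between mSC and nmSC. The share of all genes called in that fit is not given here.

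**Figure D1:**
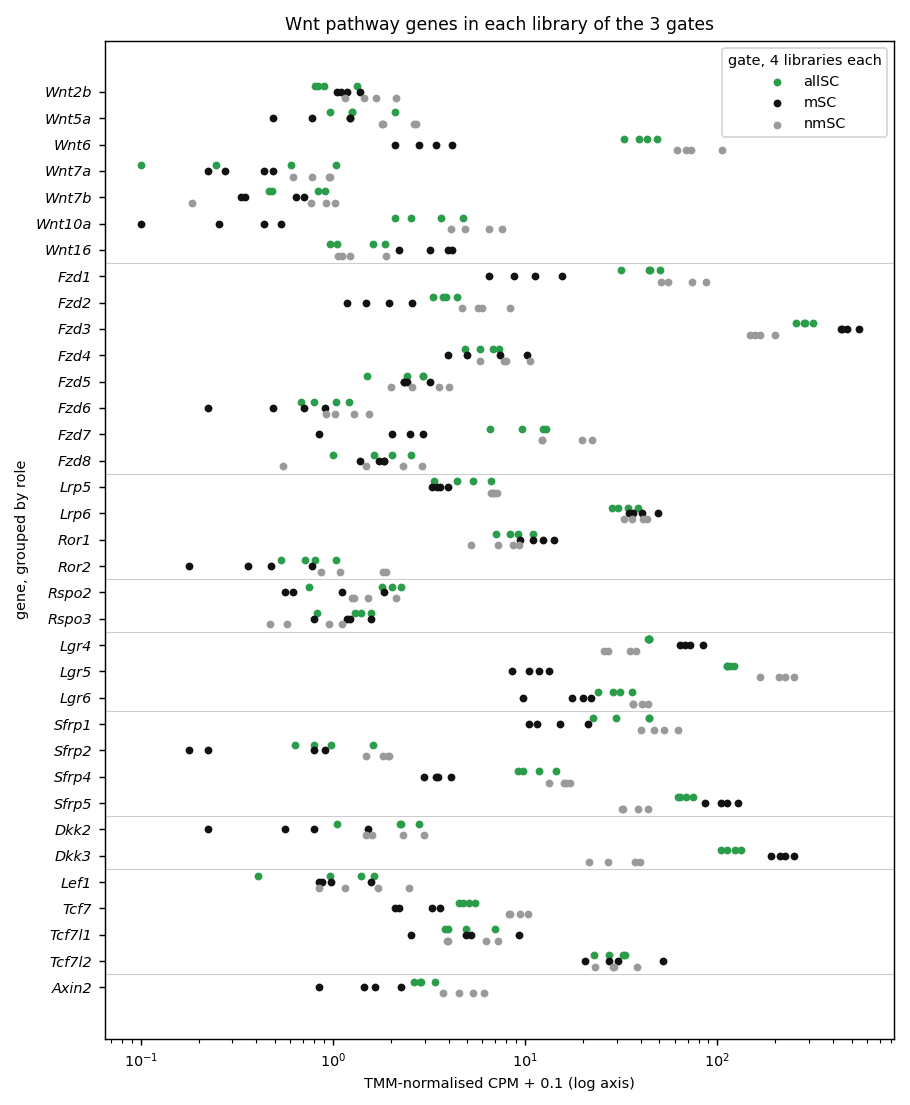
TMM-normalised CPM plus 0.1 (log axis) of the 35 tested genes, 1 point per library, 4 libraries per gate (green allSC, black mSC, grey nmSC), grouped by role. The black and grey points of Wnt6, Lgr5 and Fzd1 lie apart with mSC low, those of Dkk3, Fzd3, Sfrp5 and Lgr4 lie apart with mSC high, and those of Lrp6 and Tcf7l2 overlap.

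Wnt6 had the highest level per kilobase of exon of the ligands in allSC and nmSC and is known from epithelial and neural crest development. Its levels were 2.71, 4.08, 3.33 and 1.99 CPM in mSC replicates 1 to 4, 32.7, 38.9, 48.4 and 42.9 CPM in allSC and 61.5, 68.6, 106 and 72.6 CPM in nmSC. The mSC libraries all lay far below the rest, and the nmSC libraries all lay above the allSC libraries. The log2 fold change of mSC over nmSC was -4.65 (SE 0.23), a 25.1-fold lower level in mSC, with an adjusted p of 6.75e-12. The change had the same sign in all 4 pairs of libraries from the same mouse and was -4.48 relative to the median of all genes.

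Wnt10a lies next to Wnt6. On GRCm38 (GENCODE M21), Wnt6 (ENSMUSG00000033227) spans chr1:74771892-74785322, plus strand, and Wnt10a (ENSMUSG00000026167) spans chr1:74791516-74804179, plus strand, with 6193 bases and no other protein-coding gene between them. Wnt10a was at 4.03, 4.76, 6.42 and 7.51 CPM in nmSC and 3.56, 2.01, 2.46 and 4.62 CPM in allSC. In mSC it had 5, 5, 2 and 0 counts, or 0.339, 0.434, 0.155 and 0 CPM. The mSC libraries of both neighbours thus stood below all others, Wnt10a by a log2 fold change of -4.45 (SE 0.46) against nmSC (adjusted p = 1.95e-07). The other adjacent ligand pairs, Wnt3a with Wnt9a, Wnt9b with Wnt3 and Wnt10b with Wnt1, stayed under the filter in every gate.

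The windows of 250 bases before the start sites of 3 genes are shown because they stand for the patterns of the results: Wnt6, with the largest fold difference of the set and higher in nmSC, Axin2, the feedback target of the pathway, also higher in nmSC, and Sfrp5, higher in mSC. They were chosen after the values had been seen and were taken from RefSeq on GRCm38.p6, where 36 of the 53 genes had a window. Each is written 5′ to 3′ on the strand of its gene, with CpG dinucleotides in capitals.
Wnt6, chr1:74771642-74771891, plus strand: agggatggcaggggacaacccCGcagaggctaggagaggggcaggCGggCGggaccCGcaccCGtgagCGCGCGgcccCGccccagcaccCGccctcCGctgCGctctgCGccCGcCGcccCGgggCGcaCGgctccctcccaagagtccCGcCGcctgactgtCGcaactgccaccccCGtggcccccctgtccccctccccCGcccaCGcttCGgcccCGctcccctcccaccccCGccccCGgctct
Axin2, chr11:108920099-108920348, plus strand: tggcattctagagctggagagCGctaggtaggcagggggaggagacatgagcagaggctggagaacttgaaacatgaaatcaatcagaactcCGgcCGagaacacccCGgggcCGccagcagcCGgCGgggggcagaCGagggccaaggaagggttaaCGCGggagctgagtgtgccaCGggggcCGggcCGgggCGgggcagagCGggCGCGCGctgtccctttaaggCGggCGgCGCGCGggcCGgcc
Sfrp5, chr19:42202253-42202502, minus strand: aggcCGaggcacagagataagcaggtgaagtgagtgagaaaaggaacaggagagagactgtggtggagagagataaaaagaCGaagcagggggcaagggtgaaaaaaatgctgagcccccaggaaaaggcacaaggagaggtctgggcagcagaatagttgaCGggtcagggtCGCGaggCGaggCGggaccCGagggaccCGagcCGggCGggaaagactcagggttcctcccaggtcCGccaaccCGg

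The Wnt6 window held 28 CpG dinucleotides and 79.6% G and C, the Axin2 window 24 and 69.2%, and the Sfrp5 window 13 and 59.6%. The median was 21 CpG dinucleotides over the windows of the set and 6 over all windows. The letters CTTTGAT, the core that Tcf/Lef factors bind, were searched on both strands and occurred in 2 of the 36 genes with a window, Wnt11 and Wnt5b (2 of 44 windows, since some genes had several), against 3.21% of all 32851 windows. The letters GCGNGGGCG, the core bound by Egr factors, among them the myelination regulator Egr2, occurred in 10 of the 36 genes, or 27.8% (10 of 44 windows), against 4.70% of all windows. In the Wnt6 window that match lay on the minus strand and began 47 bases before the start. The Axin2 and Sfrp5 windows held neither run of letters. A match is a description of the letters. The Egr core itself holds CpG dinucleotides, which were more frequent in the windows of the set than in most, and the part of this in the share was not tested.

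Wnt16 went the other way. It was at 2.10, 4.08, 3.88 and 3.12 CPM in mSC, 0.945, 0.870, 1.77 and 1.51 CPM in allSC and 0.960, 1.02, 1.12 and 1.78 CPM in nmSC. Its mSC libraries all lay above those of both other gates, with a log2 fold change of 1.41 (SE 0.35) against nmSC (adjusted p = 0.00325) and 1.38 (SE 0.35) against allSC (adjusted p = 0.00925). Wnt5a, the ligand best known for the β-catenin-independent branch, was at 0.678, 1.13, 0.388 and 1.12 CPM in mSC and 2.59, 1.70, 2.54 and 1.71 CPM in nmSC. These did not overlap (log2 fold change -1.39, SE 0.41, adjusted p = 0.0106), but the level was low in both. Wnt2b, Wnt7a and Wnt7b passed the filter without a call, at log2 fold changes of -0.45, -1.41 and -0.59, and Wnt7a was at 0.125 to 0.388 CPM in mSC and 0.523 to 0.864 in nmSC. Wnt1, Wnt2, Wnt3, Wnt3a, Wnt4, Wnt5b, Wnt8a, Wnt8b, Wnt9a, Wnt9b, Wnt10b and Wnt11 did not pass it.

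Of the 10 Frizzled receptors, Fzd3 was higher in mSC, Fzd1, Fzd2 and Fzd7 were higher in nmSC, and Fzd4, Fzd5, Fzd6 and Fzd8 passed the filter without a call. Fzd3, known from axon guidance and planar cell polarity (ENSMUSG00000007989; chr14:65192449-65262463, minus strand), was at 543, 439, 447 and 471 CPM in mSC, 313, 257, 284 and 286 CPM in allSC and 168, 149, 158 and 198 CPM in nmSC. The 3 gates did not overlap, and the log2 fold change of mSC over nmSC was 1.50 (SE 0.12, adjusted p = 1.04e-08). Fzd1 was at 8.61, 15.5, 11.2 and 6.36 CPM in mSC, 31.6, 43.9, 44.4 and 50.5 CPM in allSC and 50.6, 87.5, 55.5 and 73.4 CPM in nmSC, with every mSC library below every other. Its log2 fold change was -2.67 (SE 0.24, adjusted p = 2.81e-08).

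Fzd7, a close relative of Fzd1 and Fzd2, was at 2.85, 2.43, 1.94 and 0.748 CPM in mSC, 6.47, 9.56, 12.3 and 12.8 CPM in allSC and 12.1, 22.2, 12.2 and 19.6 CPM in nmSC. The mSC libraries again lay below all others (log2 fold change -2.99, SE 0.31 against nmSC, adjusted p = 2.43e-07). Fzd2 was at 1.08, 1.39, 1.86 and 2.49 CPM in mSC and 5.57, 5.86, 8.21 and 4.61 CPM in nmSC, without overlap (log2 fold change -1.86, SE 0.28, adjusted p = 2.45e-05). Fzd4, a receptor that also answers Norrin, was at 3.86 to 10.2 CPM in mSC and 5.69 to 10.5 in nmSC, and these overlapped. Fzd5, Fzd6 and Fzd8 had mean levels between 0.484 and 2.95 CPM in these 2 gates. Fzd6 libraries did not overlap, at 0.814, 0.608, 0.388 and 0.125 CPM in mSC and 1.44, 1.19, 0.821 and 0.922 CPM in nmSC, but its adjusted p was 0.0794.

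**Figure D2:**
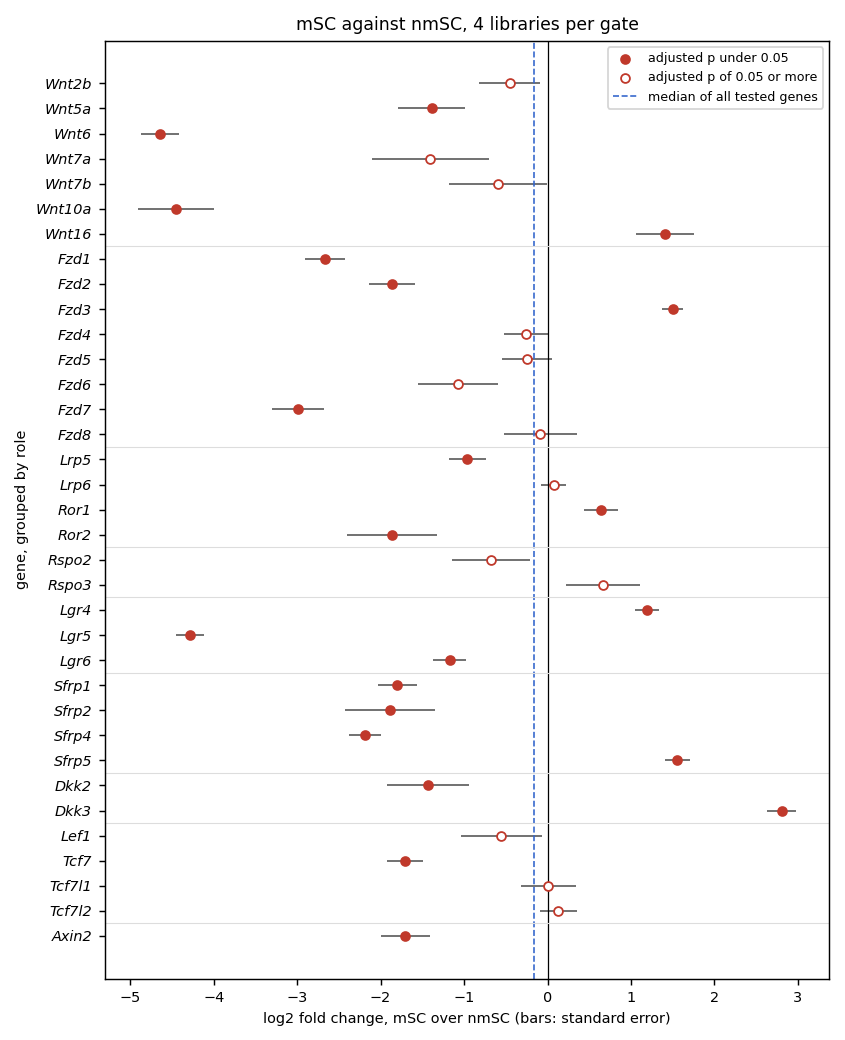
Log2 fold change of mSC over nmSC for the 35 tested genes (4 libraries per gate), with bars of 1 standard error. Filled points had an adjusted p under 0.05, and the dashed line marks the median of all tested genes at -0.16. Wnt6, Wnt10a and Lgr5 lie below -4 and Dkk3 at 2.81.

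Among the co-receptors, Lrp6 was at 49.0, 40.6, 34.6 and 36.3 CPM in mSC and 40.9, 36.0, 32.5 and 43.0 CPM in nmSC. These overlapped, with a log2 fold change of 0.076 (SE 0.15) and an adjusted p of 0.699. Its direction depended on the scaling, since the fold change was -0.48 with library size alone (adjusted p = 0.0147) and -0.28 without the 50 top genes in the library size. Lrp5, the paralog of Lrp6, was at 3.53, 3.39, 3.18 and 3.86 CPM in mSC and 6.82, 6.54, 7.02 and 6.72 CPM in nmSC and did not overlap between them (log2 fold change -0.96, SE 0.22, adjusted p = 0.00184).

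Ror1 and Ror2 are receptor tyrosine kinases that bind Wnt5a. Ror1 was at 12.3, 9.29, 14.1 and 10.8 CPM in mSC and 8.54, 7.13, 9.18 and 5.14 CPM in nmSC. The lowest mSC library lay just above the highest nmSC library, and the log2 fold change was 0.64 (SE 0.21, adjusted p = 0.019). That call was lost with library size alone (0.082, adjusted p = 0.739), without the 50 top genes in the library size (0.28, adjusted p = 0.265), without mSC replicate 3 (adjusted p = 0.0668) and without nmSC replicate 4 (adjusted p = 0.0638). Ror2 was much lower, at 0.678, 0.260, 0.0776 and 0.374 CPM in mSC and 0.768, 1.78, 1.72 and 0.988 CPM in nmSC (log2 fold change -1.87, SE 0.54, adjusted p = 0.00972). It differed in the opposite direction from Ror1.

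The R-spondins Rspo2 and Rspo3, the ligands of the Lgr receptors, passed the filter and neither was called between mSC and nmSC. Rspo2 was at 0.465 to 1.74 CPM in mSC and 1.15 to 2.04 in nmSC, and Rspo3 at 0.698 to 1.48 and 0.373 to 1.02 CPM. Rspo1 and Rspo4 did not pass the filter.

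The 3 Lgr receptors were all called, and not in 1 direction. Lgr5, best known as a marker of epithelial stem cells and a Wnt target there (ENSMUSG00000020140; chr10:115450311-115587780, minus strand), was at 8.41, 10.3, 13.3 and 11.7 CPM in mSC, 112, 117, 122 and 113 CPM in allSC and 167, 210.1, 250.2 and 226 CPM in nmSC. The gates were fully apart, mSC lowest and nmSC highest. The log2 fold change of mSC over nmSC was -4.29 (SE 0.17), a 19.6-fold lower level in mSC (adjusted p = 6.88e-13). Lgr4, the most widely expressed of the 3 receptors, was at 63.7, 71.7, 67.8 and 83.8 CPM in mSC, 43.3, 43.9, 44.0 and 43.8 CPM in allSC and 37.4, 25.6, 27.0 and 35.1 CPM in nmSC. The gates were again apart, but in the reverse order, with a log2 fold change of 1.20 (SE 0.14, adjusted p = 1.47e-06). Lgr6 was at 19.8, 22.1, 17.4 and 9.60 CPM in mSC, 36.0, 31.2, 28.7 and 23.9 CPM in allSC and 43.5, 36.2, 40.5 and 36.4 CPM in nmSC. It followed the order of Lgr5 with a smaller difference (log2 fold change -1.17, SE 0.20, adjusted p = 8.18e-05).

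The secreted Frizzled-related proteins carry a Frizzled-like domain that binds Wnt ligands, and all 4 of the set were called. Sfrp5 (ENSMUSG00000018822; chr19:42197971-42202252, minus strand) was at 86.2, 105, 112 and 128 CPM in mSC, 63.9, 62.1, 68.9 and 74.6 CPM in allSC and 38.6, 32.0, 43.5 and 32.1 CPM in nmSC. Its 3 gates did not overlap, with mSC highest and a log2 fold change of 1.56 (SE 0.15, adjusted p = 5.83e-08). Sfrp1 was at 10.4, 11.4, 21.2 and 15.1 CPM in mSC, 22.5, 29.6, 43.9 and 44.1 CPM in allSC and 40.0, 52.9, 46.6 and 62.1 CPM in nmSC, so that mSC lay below both other gates (log2 fold change -1.80, SE 0.24 against nmSC, adjusted p = 5.17e-06). Sfrp4 was at 3.32, 3.99, 3.41 and 2.87 CPM in mSC and 15.8, 17.1, 13.3 and 16.2 CPM in nmSC (log2 fold change -2.19, SE 0.19, adjusted p = 2.26e-08). Its mSC libraries all lay below the nmSC libraries. Sfrp2 showed the same order at a low level, 0.814, 0.695, 0.0776 and 0.125 CPM in mSC and 1.82, 1.87, 1.72 and 1.38 CPM in nmSC (log2 fold change -1.89, SE 0.54, adjusted p = 0.00933).

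Of the Dickkopf proteins, Dkk3 differs from the others in that it is not known as an antagonist of Lrp5 and Lrp6. Dkk3 (ENSMUSG00000030772; chr7:112116017-112159057, minus strand) was at 225, 212, 251 and 191 CPM in mSC, 124, 105, 112 and 132 CPM in allSC and 21.4, 27.0, 39.6 and 37.2 CPM in nmSC. Every mSC library was above every allSC library, and every allSC library above every nmSC library. The log2 fold change of mSC over nmSC was 2.81 (SE 0.18, adjusted p = 1.88e-10). Dkk2, a ligand of Lrp5 and Lrp6, was at 1.42, 0.695, 0.465 and 0.125 CPM in mSC and 2.88, 2.21, 1.49 and 1.38 CPM in nmSC. These overlapped, with a log2 fold change of -1.43 (SE 0.49, adjusted p = 0.0259). The call was lost when mSC replicate 2, 3 or 4 or nmSC replicate 1 or 2 was left out, with adjusted p values of 0.0544 to 0.0823. Dkk1 and Dkk4 did not pass the filter.

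Among the nuclear factors, Tcf7 was at 3.53, 2.00, 3.18 and 2.12 CPM in mSC, 4.44, 5.02, 5.39 and 4.62 CPM in allSC and 8.26, 8.15, 9.26 and 10.3 CPM in nmSC. The 3 gates did not overlap, and the log2 fold change of mSC over nmSC was -1.71 (SE 0.22, adjusted p = 3.27e-06). Tcf7l2, which had the highest level of the 4 per length in mSC and allSC with either measure of length used below, was at 20.5, 30.3, 27.4 and 52.2 CPM in mSC and 38.0, 29.1, 22.9 and 28.4 CPM in nmSC. These overlapped (log2 fold change 0.13, SE 0.23, adjusted p = 0.662). Tcf7l1, mostly known as a repressor, was at 2.44, 5.12, 4.81 and 9.22 CPM in mSC and 7.10, 3.82, 6.20 and 3.88 CPM in nmSC (log2 fold change 0.011, SE 0.33, adjusted p = 0.98). The sign for these 2 genes depended on the scaling and on single libraries: with library size alone it was -0.47 for Tcf7l2 and -0.58 for Tcf7l1, and without mSC replicate 4 it was -0.18 and -0.35. Lef1 was low, at 0.746 to 1.47 CPM in mSC and 0.747 to 2.40 in nmSC, and overlapped (adjusted p = 0.366).

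Axin2, a scaffold of the complex that destroys β-catenin and itself a target of the pathway, was at 1.36, 2.17, 1.55 and 0.748 CPM in mSC, 2.54, 2.74, 2.77 and 3.32 CPM in allSC and 4.42, 3.65, 6.05 and 5.27 CPM in nmSC. The libraries of the 3 gates did not overlap, with mSC lowest, although mSC replicate 4 held only 6 counts. The log2 fold change of mSC over nmSC was -1.71 (SE 0.29), a 3.26-fold lower level in mSC (adjusted p = 0.000113). Its exons overlap those of another annotated gene, as do those of Fzd5, Fzd6, Wnt5a, Wnt7b, Lef1, Tcf7l1, Rspo3 and Sfrp2 among the tested genes, and whether the counting used strand is not given in the sources used here.

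Levels between genes were compared per kilobase of the summed exon length of each gene. In mSC the order ran from Dkk3 (65.5 CPM per kilobase) through Sfrp5 (56.6), Fzd3 (37.1) and Lgr4 (12.2) to Tcf7l2 (3.71). In nmSC it began with Wnt6 (35.2 CPM per kilobase), followed by Lgr5 (20.8), Sfrp5 (19.2), Fzd1 (15.9), Fzd3 (13.1) and Sfrp1 (11.5). In allSC the order was Sfrp5, Dkk3, Fzd3, Wnt6 and Lgr5, at 35.5, 35.2, 22.2, 18.6 and 11.3 CPM per kilobase. Neighbours such as Sfrp5 and Dkk3 in allSC differed by less than the spread of their libraries. The order depended on the length used. Per kilobase of mean transcript length, the mSC order began with Fzd3 (72.2), Dkk3 (65.5 CPM per kilobase) and Sfrp5 (56.7), and in the same gate Wnt16 and Wnt6 were level at 2.08 and 2.03. In nmSC it then began with Lgr5 (88.7 CPM per kilobase), Wnt6 (51.6) and Fzd3 (25.6), with Fzd1 at 15.9, and in allSC with Lgr5 (48.2) and Fzd3 (43.3).

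The floor of such levels was read from 1452 olfactory and vomeronasal receptor genes, which serve the detection of odours and pheromones. Their mean was 0.292 CPM per kilobase in allSC, 0.207 in mSC and 0.334 in nmSC, a log2 ratio of -0.69 for mSC over nmSC, so that this floor itself was lower in mSC. Of the 53 genes, 22 lay above the 95th percentile of the receptor genes in at least 1 gate and 16 in all 3. Among those called between mSC and nmSC, Lrp5, Ror2, Wnt5a and Dkk2 lay below it in every gate, and Axin2 and Sfrp2 lay above it in nmSC alone, at 1.19 and 1.07 times its value. With mean transcript length Lrp5 and Axin2 lay above it in all 3 gates, Lrp5 in mSC by the narrow margin of 0.710 against 0.708 CPM per kilobase. Wnt16 lay above it in mSC alone, at 1.47 times its value. Fzd7, Wnt10a and Fzd2 lay above it in nmSC and allSC but below it in mSC, at 0.856, 0.183 and 0.908 times its value. The part of this floor in the differences of these low genes was not tested. Of Wnt6, Lgr5, Fzd1, Dkk3, Sfrp5, Fzd3 and Lgr4, the lowest value in any gate was that of Lgr5 in mSC, 2.07 times the percentile.

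**Figure D3:**
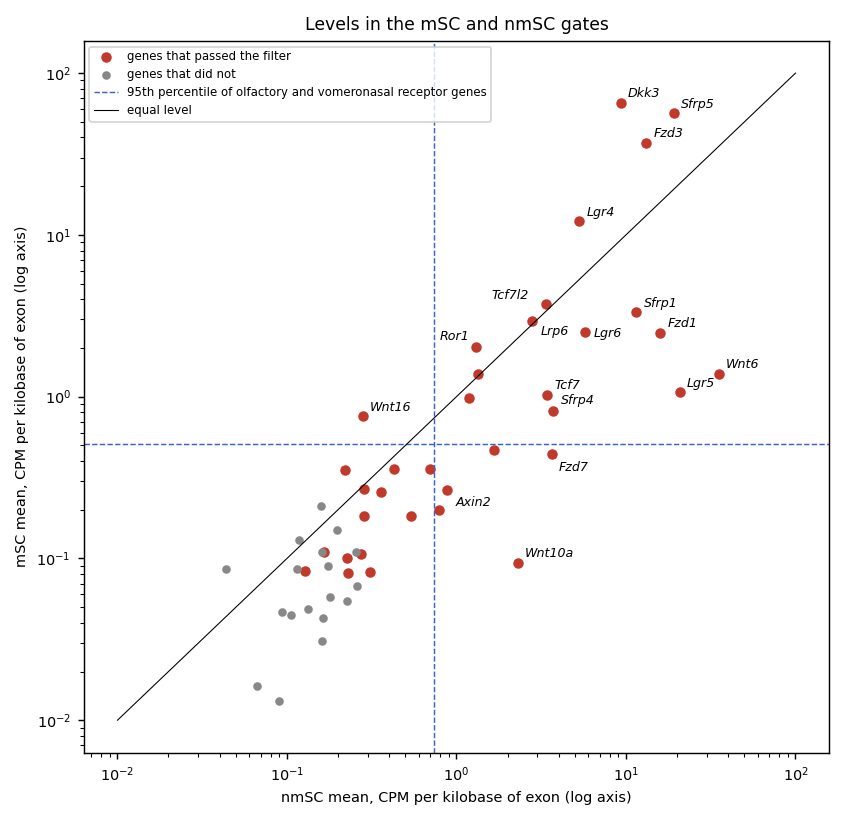
Mean level of each of the 53 genes in nmSC (x) and mSC (y), in CPM per kilobase of exon on log axes, 4 libraries per gate. Red points passed the filter, grey points did not, dashed lines mark the 95th percentile of the olfactory and vomeronasal receptor genes (0.739 in nmSC, 0.513 in mSC), and the solid line marks equal levels. Dkk3, Sfrp5, Fzd3 and Lgr4 lie above that line at high levels, and Wnt6, Lgr5 and Fzd1 below it.

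The make-up of each family, as the share of each gene in the summed level per kilobase of its family within a library, does not depend on how libraries are scaled. These shares were computed after the values had been seen and are a description. Fzd3 made up 87.6% of the Frizzled sum in mSC (84.4 to 90.9 over the 4 libraries) and 36.2% in nmSC (28.1 to 40.9), and Fzd1 made up 5.93% and 42.9%. Lgr4 made up 77.1% of the Lgr sum in mSC (74.3 to 84.9) and 16.9% in nmSC (13.2 to 22.0), and Lgr5 made up 6.75% and 65.0%. Lgr4 led the Lgr sum in every mSC library and Lgr5 in every nmSC library, with either measure of length. Fzd3 led the Frizzled sum in every mSC library with either length. In nmSC the leader turned with the length: Fzd1 led in 3 of the 4 libraries, all but replicate 1, by summed exon length, and Fzd3 led in all 4 by mean transcript length (51.8% against 31.8% for Fzd1). The share of Fzd3 was lower in nmSC than in mSC by either length.

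In the Sfrp family the leader stayed the same, also with mean transcript length. By summed exon length Sfrp5 made up 92.9% of the sum in mSC and 54.4% in nmSC, where Sfrp1 made up 32.7%. Wnt6 made up 86.2% of the ligand sum in nmSC and 38.5% in mSC, where Wnt16 made up 21.5% and the 16 ligands other than Wnt6, Wnt10a and Wnt16 together 37.6%. By mean transcript length Wnt6 made up 84.6% in nmSC and 31.1% in mSC, where Wnt16 made up 32.4%. Among the Tcf/Lef factors, Tcf7l2 made up 58.5% in mSC (53.2 to 64.6) and Tcf7 18.5% (8.77 to 30.6), whereas in nmSC they made up 40.4% and 41.6%. By mean transcript length Tcf7l2 led in every library, with 61.5% in nmSC against 18.9% for Tcf7. Dkk3 made up 99.3% of the Dickkopf sum in mSC and 90.1% in nmSC.

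**Figure D4:**
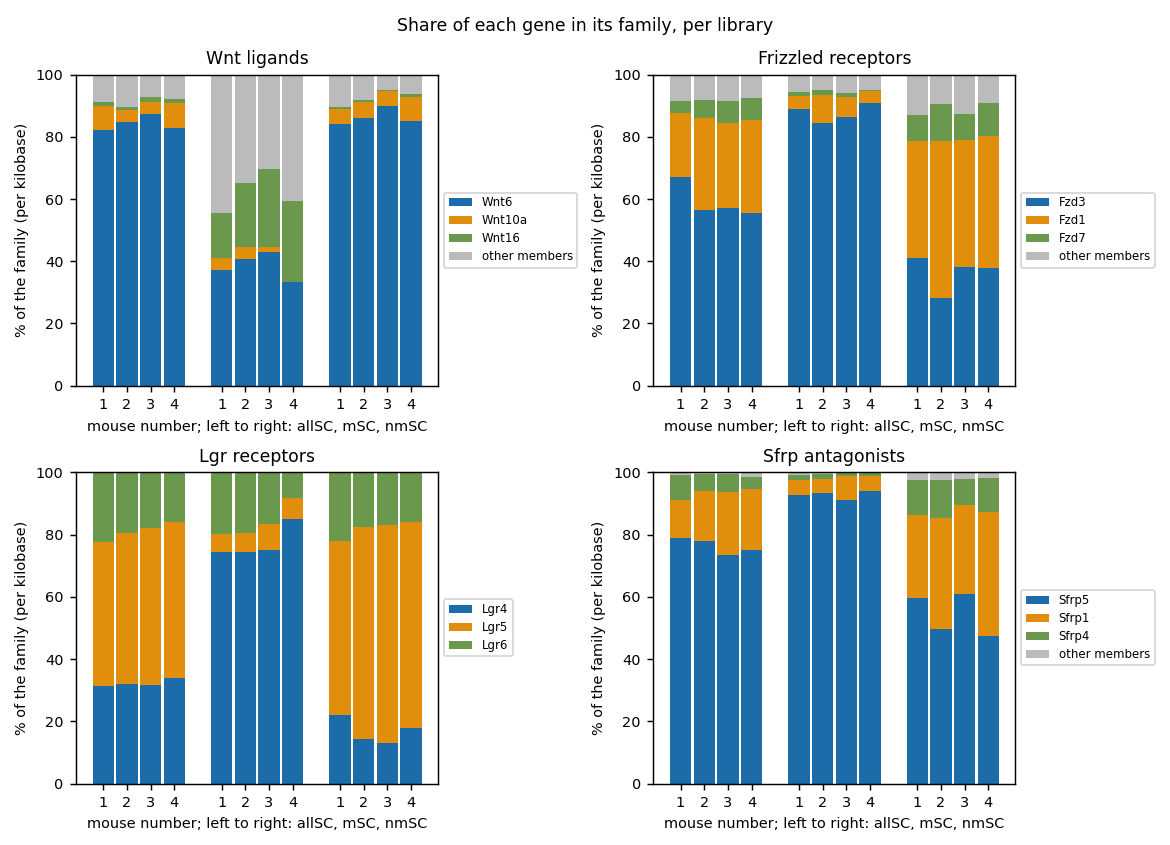
Share of each gene in the summed CPM per kilobase of its family (%), by summed exon length, 1 bar per library, in order of mouse number within allSC, mSC and nmSC, for the ligands, Frizzled receptors, Lgr receptors and Sfrp antagonists. Fzd3 and Lgr4 fill most of the mSC bars (87.6% and 77.1% on average), and Fzd1 and Lgr5 take the largest average share of the nmSC bars (42.9% and 65.0%), where by mean transcript length, not drawn, Fzd3 in place of Fzd1 leads with 51.8%.

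The allSC gate covers the cells of both other gates. Its mean lay between the mSC and nmSC means for 27 of the 35 tested genes, against 69.5% of all tested genes. The exceptions were Lrp6, Fzd4, Fzd5, Wnt2b, Tcf7l1, Tcf7l2, Rspo2 and Rspo3, none of which was called between mSC and nmSC.

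Against allSC, mSC differed in 17 genes, 5 higher in mSC and 12 lower. Among all tested genes 17.6% were called in this comparison, 8.76% higher in mSC and 8.80% lower. The 5 higher in mSC were Dkk3 (log2 fold change 0.89, SE 0.16), Fzd3 (0.74, SE 0.12), Lgr4 (0.71, SE 0.14), Sfrp5 (0.67, SE 0.14) and Wnt16. The largest differences the other way were those of Wnt6 (-3.73, SE 0.22), Wnt10a (-3.59, SE 0.47), Lgr5 (-3.41, SE 0.16), Fzd7 (-2.30, SE 0.31) and Fzd1 (-2.02, SE 0.24), with adjusted p values of 6.66e-10, 1.93e-05, 9.25e-11, 2.92e-05 and 4.13e-06. Lgr6, Sfrp1, Sfrp4, Fzd2, Tcf7, Axin2 and Dkk2 were also lower in mSC. Axin2 stood near the threshold (-0.93, SE 0.30, adjusted p = 0.039) and lost its call with the mouse as a block (adjusted p = 0.0618), without the filter on low counts (adjusted p = 0.0553) and without any 1 of the 8 libraries other than mSC replicate 2. Dkk2 stood there too (-1.44, SE 0.49, adjusted p = 0.0492) and lost its call with the block (adjusted p = 0.0573), without the filter (adjusted p = 0.0518) and without mSC replicate 2, 3 or 4 or allSC replicate 2, 3 or 4. With 1 of these libraries left out, adjusted p ran from 0.0985 to 0.131 for Dkk2 and from 0.0575 to 0.0989 for Axin2. The Tcf7 call was lost without mSC replicate 2 (adjusted p = 0.0602) and the Sfrp5 call with library size alone (adjusted p = 0.0501).

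Against allSC, nmSC differed in 7 genes, where 10.4% of all tested genes were called, 2.82% higher in nmSC and 7.55% lower. Wnt6 (log2 fold change 0.92, SE 0.18, adjusted p = 0.00216), Lgr5 (0.88, SE 0.14, adjusted p = 0.000314) and Tcf7 (0.89, SE 0.21, adjusted p = 0.00736) were higher in nmSC. Dkk3 (-1.91, SE 0.17, adjusted p = 1.58e-07), Sfrp5 (-0.88, SE 0.14, adjusted p = 0.000326), Fzd3 (-0.76, SE 0.12, adjusted p = 0.000274) and Lgr4 (-0.48, SE 0.14, adjusted p = 0.0338) were lower. The Lgr4 call was lost with library size alone (adjusted p = 0.268) and without nmSC replicate 2 or 3 or any 1 allSC library (adjusted p = 0.0753 to 0.141). The split of 3 higher and 4 lower became 12 and 3 with library size alone, 7 and 3 without the 50 top genes in the library size, 7 and 4 with DESeq2, 11 and 4 with only the 2 gates in the fit and 5 and 4 with the mouse as a block. In 8 genes every nmSC library lay above every allSC library, as in 7.37% of all tested genes. The 8 were the 3 called genes and Fzd1, Fzd2, Axin2, Lgr6 and Lrp5, which were not called at log2 fold changes of 0.65, 0.70, 0.78, 0.38 and 0.49. The comparisons share libraries, so their values are set side by side here and not as separate evidence.

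The rest of the pathway was read from a list of 76 further genes, chosen for their textbook roles in Wnt secretion, the destruction complex, co-repression, planar polarity and as targets, of which 71 were tested. Between mSC and nmSC 41 of them were called, 21 higher in mSC and 20 higher in nmSC, against 20.4% and 20.1% of all tested genes. The 41 were 57.7% of the 71, against 40.5% of all tested genes, and the median log2 fold change of the 71 was -0.0047. That split depended on the scaling and became 8 and 43 with library size alone and 12 and 35 without the 50 top genes in the library size. Of the components that serve the pathway as a whole, β-catenin (Ctnnb1) was at 508 ± 111 CPM in mSC and 426 ± 55.3 CPM in nmSC (SD, n = 4), at a log2 fold change of 0.25 (SE 0.15) and an adjusted p of 0.175. Its sign turned with library size alone (-0.29), and without mSC replicate 4 it passed the test (0.39, adjusted p = 0.00793). Wls, which carries Wnt proteins to the cell surface, had a log2 fold change of -0.28 (adjusted p = 0.0974), and Porcn, which attaches their lipid, one of 0.65 (adjusted p = 0.00377). With library size alone Wls passed the test (-0.83, adjusted p = 8.74e-05) and Porcn did not (0.082, adjusted p = 0.657).

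Among the listed genes with at least 10 CPM, Frzb had the largest difference. It encodes a further secreted Frizzled-related protein, outside the set only by its name, and was at 69.0, 53.9, 52.8 and 49.1 CPM in mSC and 2.30, 1.27, 0.747 and 2.44 CPM in nmSC. The mSC libraries lay far above the nmSC libraries, as for Sfrp5 (log2 fold change 5.05, SE 0.24, adjusted p = 5.79e-12). Also higher in mSC, by the log2 fold change of mSC over nmSC given with each, were the planar polarity genes Prickle2 (2.14) and Prickle1 (1.37), the co-repressor Tle2 (1.73), the Dickkopf receptor Kremen1 (1.22) and the casein kinase Csnk1g3 (1.20). Higher in nmSC, on the same scale, were the co-repressor Tle3 (-2.85), the target Myc (-2.53), the planar polarity cadherin Celsr1 (-2.23), the Lrp-binding antagonist Sostdc1 (-1.89), the Wnt7 co-receptor Adgra2 (-1.82) and the glypican Gpc4 (-1.75). The co-repressors Tle2 and Tle3, which bind Tcf/Lef factors, differed in opposite directions: Tle2 was at 32.6, 22.8, 26.1 and 15.7 CPM in mSC and 8.73, 6.88, 8.14 and 5.79 CPM in nmSC, and Tle3 at 5.09, 6.68, 8.61 and 5.73 and 52.4, 47.7, 50.4 and 37.9 CPM. Sostdc1, the most abundant of these in nmSC by CPM, was at 111, 126, 125 and 218 CPM in mSC and 516, 543, 577 and 509 CPM in nmSC. Of the 71 genes, 25 were called between mSC and allSC (11 higher in mSC) and 14 between nmSC and allSC (7 higher in nmSC). These were 35.2% and 19.7% of the 71, against 17.6% (8.76% higher in mSC) and 10.4% (2.82% higher in nmSC) of all tested genes.

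The 18 genes of the set that did not pass the filter were Dkk1, Dkk4, Fzd9, Fzd10, Rspo1, Rspo4 and the 12 ligands named above. None exceeded a mean of 0.788 CPM in any gate, reached by Fzd9 in allSC, or 20 counts in any library, reached by Dkk1 in nmSC replicate 2. In the fit without the filter, 1 of the 18 was called between mSC and nmSC and 6 had an unadjusted p under 0.05, all 6 lower in mSC. The one called was Wnt4, at a log2 fold change of -2.27 (SE 0.67, adjusted p = 0.0120), with 1 to 2 counts in each mSC library and 6 to 11 in each nmSC library. It was also called between mSC and allSC (log2 fold change -2.08, adjusted p = 0.0440), and none of the 18 was called between nmSC and allSC, where 2 had an unadjusted p under 0.05. All 18 lay below the 95th percentile of the receptor genes in every gate, and the mean of those receptor genes was itself lower in mSC (log2 ratio -0.69 over nmSC). Wnt4, at 0.031 CPM per kilobase in mSC and 0.161 in nmSC, lay below even that mean (0.207 and 0.334). The share of all genes with such p values in the fit without the filter is not given here.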

How the data were processed

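Raw read counts per gene were used for 12 libraries prepared by the Smart-Seq2 protocol. Per the labels and the paper's methods, the authors removed adapters and poor read ends, mapped the reads with STAR 2.6.1c and obtained gene counts with featureCounts, which they deposited unnormalized. The submitters' processing notes name GRCm38.p5, the paper's methods a human build, and the identifiers are those of mouse. How the counting treated strand, reads with several positions and genes that overlap is not given in the sources used here. Gene symbols, positions and exon lengths came from GENCODE release M21, which matched 25664 of 25700 identifiers, and levels per kilobase used the summed length of all exons.

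Groups and mouse numbers came from the sample titles and subject labels. The fits used edgeR 4.0.16 with limma 3.58.1 in R 4.3.3: TMM scaling, a filter on low counts by gate, the quasi-likelihood test with all 12 libraries in 1 model and Benjamini-Hochberg adjustment over 18597 genes. CPM were computed from the TMM-scaled library sizes. Total counts ranged from 8180927 to 16918122, and floors of 3 counts cover counting error only. All libraries of a gate differed by more than sampling noise (lowest chi-square per degree of freedom 4.03). Each mouse gave 1 library per gate, which pairs the libraries, and the deviations of same-numbered libraries from their gate means correlated by -0.225 to 0.246 over 12 pairs.

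Alternatives were DESeq2 1.42.0, RLE size factors, library size alone or without the 50 top genes, no filter, at least 1 CPM in 4 libraries, only the 2 gates compared, the mouse as a replicate block, mean transcript length (for shares within families added after seeing the data) and leaving out each library. The test was also checked on simulated counts with 200 changed genes, in 3 draws. It recovered 56.2% to 56.8% of the 2-fold changes and 79.8% to 89.2% of the 4-fold changes between mSC and nmSC. False calls made up 4.64% to 8.84% of its calls. These draws held 17991 to 18056 genes, whereas 7540 of the 18597 tested genes were called between mSC and nmSC. How the test and its scaling fare with so many changed genes was not tested. The genes and lists were chosen with earlier results of these data known. Any gene of the set that passed the filter could be named. Of the further pathway genes, up to 6 per direction were named, those called between mSC and nmSC with a mean of at least 10 CPM and the largest fold change, together with Ctnnb1, Wls and Porcn. Marker lists were summarised by summed CPM, and 1 marker gene is not reported here. Promoter windows came from RefSeq (GRCm38.p6).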

Additional observations from a re-analysis of the deposited data

Results flagged for a closer look

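Within gates of 4 libraries, the highest and lowest library of each tested gene of the set, and of the pathway genes named above, was compared with the others by Dixon's test, for 150 groups in all. In 3 of them 1 library stood apart, where chance alone is known to set apart about 1 group in 20. The 3 were all mSC groups. Celsr1 was at 2.87 CPM in mSC replicate 2 and at 4.11 to 4.34 in the other mSC libraries. Sostdc1 was at 218 CPM in mSC replicate 4 and at 111 to 126 in the others. Its log2 fold change of mSC over nmSC ran from -2.15 to -1.76 when each library was left out in turn. Fzd5 was at 3.12 CPM in mSC replicate 4 and at 2.24 to 2.33 in the others, and it was not called in any comparison between gates.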

How the results depend on the processing

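Of the 22 genes of the set called between mSC and nmSC, none changed direction under the alternatives, whereas 5 called genes of the pathway list did with library size alone and 2 without the 50 top genes. With these scalings only genes called higher in mSC could in effect turn, 6 of the 22 and 21 of the 41 called in the pathway list. With library size alone, Tcf7l2 turned to -0.47, Tcf7l1 to -0.58, Lrp6 to -0.48 and Ctnnb1 to -0.29 on the log2 scale, and without the 50 top genes in the library size to -0.26, -0.37, -0.28 and -0.099. Tcf7l1 also turned to -0.011 with the filter of at least 1 CPM in 4 libraries. Leaving out 1 library gave -0.18 to 0.32 for Tcf7l2, -0.35 to 0.28 for Tcf7l1 and -0.021 to 0.16 for Lrp6, none of them called in the full set. The list of further pathway genes had 8 higher in mSC and 43 higher in nmSC with library size alone, and 12 and 35 without the 50 top genes, in place of 21 and 20. These scalings lower the mSC libraries as a whole, with a median of all genes at -0.73 and -0.52 in place of -0.16.

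Between nmSC and allSC, 15 genes of the set were called with library size alone, 11 with DESeq2 and 15 with only the 2 gates in the fit, in place of 7. Those higher in nmSC were 12 with library size alone, 7 without the 50 top genes, 7 with DESeq2, 11 with only the 2 gates and 5 with the replicate block, in place of 3. The median of nmSC over allSC for all tested genes also rose, from 0.039 to 0.30 with library size alone and to 0.19 without the 50 top genes. The shares of all tested genes called under these settings are not given here. The cause was not tested. With the replicate block the count was 22 between mSC and nmSC, 15 between mSC and allSC, 9 between nmSC and allSC and 39 for the pathway list, and beyond Axin2 and Dkk2 in mSC against allSC it ended no call of a named gene. Calls of named genes were also lost with RLE size factors (1), with only the 2 gates compared (2) and without the 50 top genes in the library size (3). Leaving out each library gave 21 to 24 calls between mSC and nmSC, 15 to 17 between mSC and allSC, 6 to 8 between nmSC and allSC and 34 to 44 for the pathway list. With library size alone Sfrp5 in mSC against allSC had an adjusted p of 0.0501 in edgeR's quasi-likelihood test, and Fzd4 in mSC against nmSC was called at -0.79 (adjusted p = 0.0208). The allSC mean lay between the other gates for 31 genes with library size alone or without the 50 top genes (81.3% and 75.9% of all tested genes) and for 24 with RLE size factors (68.9%), in place of 27. With mean transcript length 23 genes of the set, in place of 22, lay above the receptor-gene percentile, and the leading Frizzled and Tcf/Lef gene in nmSC turned to Fzd3 and Tcf7l2, an alternative chosen after seeing the data. Depth limits the 18 genes under the filter, which had at most 20 counts in a library, and without the filter Wnt4 alone among them was called in any comparison.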
